A study of Homo sapiens with 52 samples.

Results

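VCAM1, ICAM1, ALCAM, MCAM, CD44 and the cadherins CDH2, CDH11 and CDH13 are 8 cell surface genes of the 59408 genes listed in mRNA sequencing of WI-38 cells, a line of normal human lung fibroblasts that stops dividing after a limited number of doublings. The 8 were chosen by name, and VCAM1 was picked for its strong fall on day 0 after KCl, so that fall is a description with no test. It was a fall from the untreated libraries, which its other comparisons with untreated cells use again. Those VCAM1 tests are thus not independent of the choice. Cells were exposed for 24 h to 0.0090% of the detergent SDS, which gives plasma membrane damage-dependent senescence (PMD-Sen), to 75 mM KCl, which gives Ca2+-dependent senescence (Ca2+-Sen), or to 250 nM doxorubicin (DXR), which gives DNA damage response-dependent senescence (DDR-Sen). They were then washed and collected on 8 days, from day 0 (the wash) to days 1 to 4, 6, 8 and 16, and were set beside replicatively senescent cells (RS, a population doubling level of 52) and untreated young cells (population doubling levels from 32 to 46). Each of the 26 groups held 2 libraries, called here the smaller and the larger by their number of reads. All groups come from the 1 line, and the 25 comparisons with untreated cells share the same 2 untreated libraries.

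Adhesion receptors hold a cell to its neighbours, to passing white blood cells and to the matrix. VCAM1 and ICAM1 are immunoglobulin superfamily receptors that inflamed cells display, where they bind integrins of white blood cells, and their genes are textbook targets of NF-kB. ALCAM and MCAM belong to the same superfamily, CD44 binds the matrix polysaccharide hyaluronan, and classical cadherins such as CDH2 (N-cadherin) and CDH11 (OB-cadherin) join like cells through calcium-dependent contacts tied to actin by catenins. CDH13 (T-cadherin) lacks the usual cytoplasmic tail and is held in the membrane by a lipid anchor.

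On the reference GRCh38.p14 of RefSeq, VCAM1 lies at chr1:100719742-100739045, ICAM1 at chr19:10271120-10286615, ALCAM at chr3:105366909-105576900, MCAM at chr11:119308529-119317130 and CD44 at chr11:35139171-35232402. CDH2 lies at chr18:27932879-28177130, CDH11 at chr16:64943753-65123744 and CDH13 at chr16:82626969-83800640. The 250 bases before the start site of VCAM1 (chr1:100719492-100719741, plus strand) and of ICAM1 (chr19:10270870-10271119, plus strand) are shown. These members had the widest ranges of group means, with ratios of 1066 and 7.96, but CDH2 came close to ICAM1 at 7.77. Differences between the libraries of a group were set side by side only for VCAM1 and ICAM1. Both are from RefSeq, and capitals mark the sites in these windows that resemble the form NF-kB binds, and TATAAA, searched on the gene's strand.
VCAM1: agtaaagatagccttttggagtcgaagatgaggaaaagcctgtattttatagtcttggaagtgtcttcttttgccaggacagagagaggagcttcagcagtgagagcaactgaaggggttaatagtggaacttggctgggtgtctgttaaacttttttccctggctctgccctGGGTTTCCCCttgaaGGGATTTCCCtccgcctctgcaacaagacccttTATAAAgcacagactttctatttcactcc
ICAM1: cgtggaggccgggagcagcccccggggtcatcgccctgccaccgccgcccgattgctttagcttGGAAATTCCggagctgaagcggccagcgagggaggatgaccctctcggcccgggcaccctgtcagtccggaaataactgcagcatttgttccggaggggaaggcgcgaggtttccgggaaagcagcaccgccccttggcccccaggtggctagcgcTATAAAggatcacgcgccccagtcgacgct
The VCAM1 window held GGGTTTCCCC from base -77 to -68 before the start site and GGGATTTCCC from -62 to -53, while the ICAM1 window held GGAAATTCC from -186 to -178. The letters shared by both VCAM1 sites, GGGNTTNCCC, and those of the ICAM1 site were taken from these windows, so that the genes hold them by construction. On both strands of 35116 promoter windows of the same length, 1.55% held GGGNTTNCCC, 0.0826% held it at 2 or more places, 0.413% held GGAAATTCC, and 6.80% held TATAAA on the gene's strand. The AP-1 form TGANTCA was found on either strand in 6.57% of all windows and in neither of these.

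The libraries held 15.3 and 19.0 M reads in genes for untreated cells, 47.1 and 55.5 M for RS, and from 19.3 to 53.0 M for the treated groups. All values are normalized counts, that is whole read counts divided by a library scale, and levels are compared only within a gene, not between genes. The RS libraries differed most, with 4.55% of genes of a mean of at least 100 more than 2-fold apart, against 0.949% for the untreated pair. The 8 fibroblast markers tested, among them COL1A1, DCN and PDGFRA, summed to 332047 to 831703 normalized counts per group, lowest on day 0 of KCl. COL1A1 and COL1A2 weighed most in this sum, with median group means of 251960 and 231187. The markers did not all go with it: PDGFRA was highest on day 0 of KCl, at 28674 against a median of 10983. The 5 endothelial markers summed to 39.2 to 238, highest on day 0 of KCl and 61.1 in untreated cells. Among them PECAM1 had a median group mean of 6.74 and reached 142 on day 0 of KCl, VWF lay between 30.3 and 95.6, and CDH5 between 0 and 2.29. The 4 epithelial markers summed to 3.43 to 29.5, also highest on day 0 of KCl, and the 5 white blood cell markers to 0 to 34.2, highest on day 2 of DXR. Their part in the results was not tested. In bulk RNA, fewer cells with a transcript and less RNA per cell cannot be told apart.

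VCAM1, the receptor for the integrin of ITGA4 and ITGB1, had by far the widest range of the 8 genes. It was very low in the first days after SDS and KCl, and overlapped or came near the untreated libraries on day 4 of each inducer. VCAM1 was called higher on day 16 of PMD-Sen, on day 8 of Ca2+-Sen, on days 8 and 16 of DDR-Sen and in RS. Its group means ran from 11.5 on day 1 of SDS to 12261 in RS, a ratio of 1066. The 2 untreated libraries held 708 and 1153 normalized counts.
After SDS the 2 libraries held 72.7 and 87.4 on day 0, 7.90 and 15.1 on day 1 (5 and 18 reads), 107 and 32.1 on day 2, and 185 and 399 on day 3. They held 548 and 1214 on day 4, 653 and 825 on day 6, 541 and 2576 on day 8, and 9498 and 3772 on day 16. All 8 libraries of days 0 to 3 lay below both untreated libraries, those of days 4 to 8 overlapped them or spread around them, and both of day 16 lay above. The log2 difference from untreated cells was -3.49 (SE 0.74, adjusted p = 0.00022) on day 0, -6.24 (adjusted p = 4.8e-07) on day 1, -3.92 (adjusted p = 0.00058) on day 2 and 2.73 (adjusted p = 0.0037) on day 16, by limma over 15629 genes. On days 3, 4, 6 and 8 it was -1.73, -0.15, -0.30 and 0.39, and none of these passed the test.
After KCl the libraries held 49.5 and 48.6 on day 0 (48 and 87 reads), the value that chose the gene, a log2 difference of -4.18 that was not tested. They held 77.4 and 116 on day 1, 421 and 250 on day 2, 189 and 298 on day 3, 624 and 899 on day 4, and 436 and 2022 on day 6. Both libraries of day 8 were high, with 9014 and 8250, and those of day 16 held 3089 and 3250, lower than day 8 but still above both untreated libraries. VCAM1 was lower on day 1 (log2 difference -3.24, adjusted p = 0.0031) and higher on day 8 (3.25, adjusted p = 0.00079). The difference of 1.81 on day 16 did not pass (adjusted p = 0.095), nor did those of -1.47, -1.92, -0.27 and 0.06 on days 2, 3, 4 and 6.
After doxorubicin the means of days 0 to 2 were also below the untreated mean. The libraries held 311 and 280 on day 0, 122 and 314 on day 1, 221 and 499 on day 2, 868 and 1280 on day 3, 1174 and 784 on day 4, and 467 and 766 on day 6, then 3560 and 3547 on day 8 and 12674 and 7642 on day 16. Libraries of days 0 to 2 lay below the untreated pair and those of days 8 and 16 above it. The differences on days 1, 8 and 16 passed the test, at -2.20 (adjusted p = 0.025), 1.97 (adjusted p = 0.037) and 3.44 (adjusted p = 0.00036), and those on days 0, 2, 3, 4 and 6 (-1.61, -1.44, 0.22, 0.09 and -0.59) did not. RS held 19032 in its smaller and 5489 in its larger library, a log2 difference of 3.50 (adjusted p = 0.00029).
In all, VCAM1 was called lower in 5 and higher in 5 of the 24 comparisons tested, while between 5.21% and 58.9% of all genes tested were called in either direction in a comparison. Its libraries within a group differed by a median ratio of 1.63 and by up to 4.76, on day 8 of SDS, and in the order of the 26 group means 20 of 25 neighbours had overlapping libraries. The falls on day 2 of SDS and day 1 of DXR and the rise on day 16 of SDS lost their call when only the 2 groups were fitted (adjusted p = 0.092, 0.17 and 0.050), and days 1 and 8 of DXR with no filter on low values (adjusted p = 0.050 and 0.077). With precision weights (voom) the falls on days 0 and 1 of SDS, day 1 of KCl and day 1 of DXR kept their size but lost the call, with adjusted p of 0.055, 0.12, 0.10 and 0.14. Calls that rested on a library were day 16 of SDS (2.06 without the smaller SDS library, adjusted p = 0.079), day 1 of KCl (-2.95 without the smaller KCl library, adjusted p = 0.052), day 1 of DXR (-1.85 without the larger untreated and -1.52 without the smaller DXR library) and day 8 of DXR (1.62 without the smaller and 2.33 without the larger untreated library, 1.97 and 1.98 without the smaller and the larger DXR library).

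**Figure D1:**
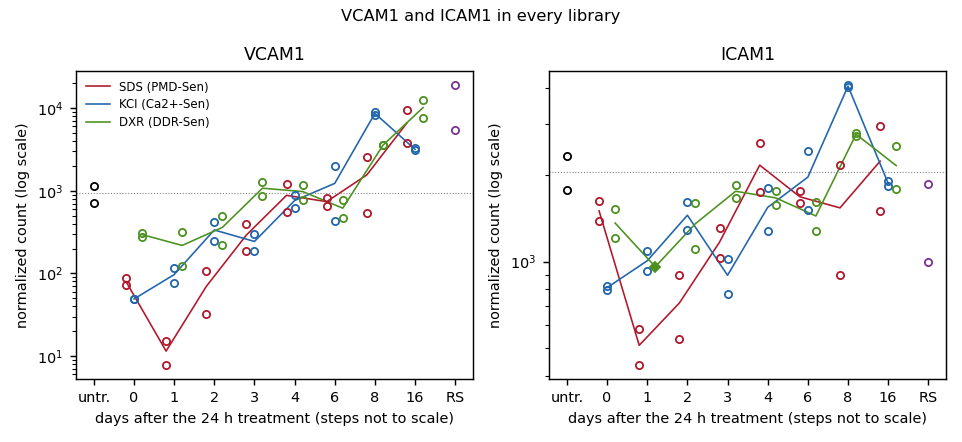
Normalized counts of VCAM1 and ICAM1 on log axes for untreated cells, each inducer by day and RS. Open circles are single libraries, the filled diamond is a group whose libraries could not be told apart, lines join group means and the dotted line is the untreated mean. VCAM1 ran from 7.90 on day 1 of SDS to 19032 in RS, and ICAM1 from 439 to 4110.

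ICAM1, the receptor for the integrins of ITGAL and ITGAM with ITGB2, moved in the same early direction but over a narrower range. Its group means ran from 512 on day 1 of SDS to 4074 on day 8 of KCl, a ratio of 7.96. The untreated libraries held 1781 and 2327 normalized counts. After SDS they held 1382 and 1620 on day 0, 585 and 439 on day 1, 896 and 540 on day 2, and 1028 and 1309 on day 3, all below the untreated pair, and from day 4 to day 16 they spread between 900 and 2969 around it. The lowest day of PMD-Sen was thus the same for ICAM1 as for VCAM1. ICAM1 was 4.01-fold lower on day 1 (SE 0.36 on the log2 scale, adjusted p = 0.00014) and lower on day 2 by a log2 difference of -1.55 (adjusted p = 0.0037).
The libraries of day 0 of KCl held 798 and 826 (log2 difference -1.33, adjusted p = 0.0027), and on day 3 they held 770 and 1022 (-1.20, adjusted p = 0.025). Both groups lay wholly below the untreated libraries. On day 8 of KCl ICAM1 rose to 4110 and 4038 (1.00, adjusted p = 0.027), the group in which VCAM1 was also called higher, and by day 16 it held 1837 and 1905 (-0.12, adjusted p = 0.86). On day 1 of DXR the group mean was 960 (-1.08, adjusted p = 0.024), and the other 7 days of DXR, from 1203 to 2802 per library, did not pass.
In RS the libraries held 1863 and 993 (-0.58, adjusted p = 0.19), so that ICAM1 was not called where VCAM1 had its highest mean. On day 16 of SDS, KCl and DXR the ICAM1 differences were 0.05, -0.12 and 0.06. ICAM1 was called lower in 5 (a median of 13.6% of all genes per comparison) and higher in 1 (13.1%) of 25 comparisons. Without the larger untreated library 2 of the 5 remained past the threshold, and the day 8 rise was lost without the smaller untreated library (0.81, adjusted p = 0.18) or either KCl library (0.99 and 1.01). The day 2 fall of SDS was -1.35 without the larger untreated and -1.18 without the larger SDS library, the day 3 fall of KCl was -0.99 without the smaller and -1.40 without the larger KCl library and was also lost without the larger untreated library, and that of day 1 of DXR was -0.89 without the larger untreated library, none of them past the threshold. With only the 2 groups fitted day 2 of SDS was lost (adjusted p = 0.078), with no filter days 3 and 8 of KCl and day 1 of DXR (0.061, 0.071 and 0.051), and with voom weights day 3 of KCl (0.050).

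The 2 libraries of a group tended to differ in the same direction for both genes. In the 25 groups in which libraries could be told apart for both, the library with more VCAM1 also held more ICAM1 in 22. The exceptions were days 1 and 6 of SDS and day 0 of KCl. Over these groups the log2 differences between libraries had a Pearson r of 0.903 and a Spearman rho of 0.855, and r was 0.871 without the 2 groups farthest from the median of VCAM1, day 2 of SDS and RS. The paired values share their libraries and scales, so this is a description. No other pair of members was compared in this way, so it is not shown to be particular to these genes. Over the 26 group means, the Pearson r of log2 levels between VCAM1 and ICAM1 was 0.83, the highest of the 28 pairs of members, and that of CD44 and CDH2 was -0.85, the lowest. The correlations of VCAM1 include day 0 of KCl, the value that chose it, so they are a description.

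**Figure D2:**
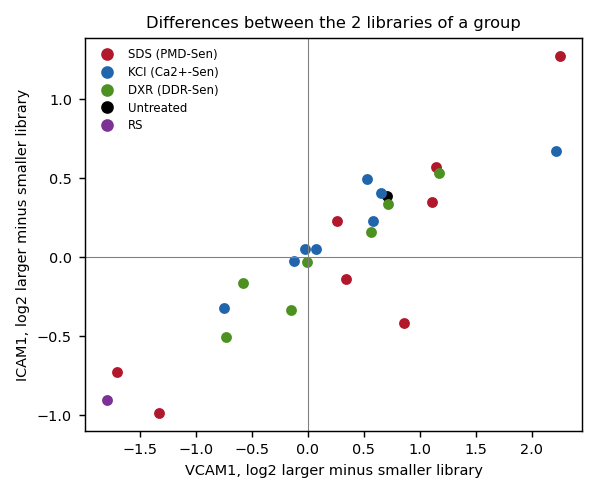
Log2 difference between the larger and the smaller library of a group, for VCAM1 on the x axis and ICAM1 on the y axis. Each of the 25 points is a group, coloured by inducer. Of the points, 22 lie where both differences have the same sign.

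ALCAM, which binds itself on a neighbouring cell and CD6 on lymphocytes, was abundant and had the narrowest range of the 8 genes. Its group means ran from 11420 on day 1 of SDS to 23048 in RS, a ratio of 2.02. The untreated libraries held 21370 and 20030 normalized counts, and the RS libraries 25063 and 21034 (log2 difference 0.15, adjusted p = 0.15). In 13 groups, most of SDS and DXR, libraries could not be told apart for ALCAM, so those values are group means with no spread of their own. Calls in these groups were not refitted without a library of the group itself. ALCAM was called lower in 9 of 25 comparisons (a median of 13.6% of all genes per comparison) and higher in none (13.1%). It fell on days 0 and 1 of SDS to means of 15560 (-0.41, adjusted p = 0.00029) and 11420 (-0.86, adjusted p = 2.2e-07), and on day 2 to 16648 and 16160 (-0.33, adjusted p = 0.0082). Day 16 of SDS was lower again, with a mean of 14884 (-0.48, adjusted p = 0.00011).
After KCl the libraries of day 0 held 19565 and 19195 (-0.09, not called), those of day 1 held 15467 and 16194 (-0.39, adjusted p = 0.0033) and those of day 8 held 16818 and 17335 (-0.28, adjusted p = 0.012). On days 0 and 1 of DXR the means were 14835 (-0.48, adjusted p = 0.0001) and 15812 (-0.39, adjusted p = 0.0014), and on day 16 the libraries held 18877 and 16823 (-0.22, adjusted p = 0.042). Without a library the calls of day 16 of DXR (-0.17 and -0.26 without the smaller and the larger untreated, -0.13 without the larger DXR library), day 2 of SDS (-0.29 without the smaller untreated, -0.31 without the larger SDS library), day 1 of KCl (-0.35 without the smaller KCl library) and day 8 of KCl (-0.23 without the smaller untreated, -0.26 without the smaller KCl library) were lost. Scaled by the upper quartile of the genes above 0 in each library, which raised all genes of the treated groups by 0.14 to 0.87 on the log2 scale, ALCAM was called higher in 11 comparisons and lower in 1, with day 1 of SDS at -0.71. Day 2 of SDS was lost with the upper quartile of genes above 0 in any library (adjusted p = 0.054), and day 16 of DXR with library totals (0.095), no trend (0.064) or only 2 groups fitted (0.12). In RS ALCAM was called higher without the larger RS library (0.28).

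MCAM, a receptor of vessel walls, smooth muscle and melanoma cells, was lowest at the start and the end of PMD-Sen. Its means lay below the untreated mean on every day of DDR-Sen, but the calls there depended on the smaller untreated library. The untreated libraries held 8548 and 6584, the RS libraries 7531 and 6546 (log2 difference -0.10, adjusted p = 0.70). After SDS they held 4175 and 4287 on day 0 (-0.83, SE 0.18, adjusted p = 0.00038), 8071 and 8582 on day 2 (0.15, not called) and 4072 and 4823 on day 16 (-0.76, adjusted p = 0.0014). After KCl they held 4905 and 4626 on day 0 (-0.66, adjusted p = 0.0032), 9322 and 9373 on day 1 (0.32, not called), 6490 and 4371 on day 6 (-0.49, adjusted p = 0.046) and 4561 and 4645 on day 8 (-0.70, adjusted p = 0.0028). The day after KCl was washed out thus held the highest MCAM of any group, above both untreated libraries.
DXR libraries lay between 4404 and 6360 on every day whose libraries could be told apart, all below the lower untreated value of 6584. The test called 6 of the 8 DXR days lower, with differences from -0.47 on day 8 to -0.71 on day 0. In all MCAM was called lower in 11 of 25 comparisons (a median of 13.6% of all genes per comparison) and higher in none (13.1%). But its untreated libraries did not lie close together. Without the smaller untreated library, which held more MCAM, 2 calls were left, days 0 and 16 of SDS, and the other differences were -0.47 on day 0, -0.31 on day 6 and -0.52 on day 8 of KCl and -0.52, -0.32, -0.39, -0.34, -0.28 and -0.34 on days 0, 1, 4, 6, 8 and 16 of DXR. Days 4, 6 and 8 of DXR also lost their call without either DXR library (-0.52 and -0.63, -0.56 and -0.50, -0.49 and -0.45 without the smaller and the larger), and day 6 of KCl and day 16 of DXR without the larger treated library (-0.21 and -0.31). Day 8 of SDS, with 7211 and 4178 (-0.45, adjusted p = 0.072), was called without the larger untreated (-0.64) or the smaller SDS library (-0.84). With no filter, day 6 of KCl and days 1, 4, 6, 8 and 16 of DXR were also lost (adjusted p from 0.052 to 0.13). With the upper quartile of the genes above 0 in each library MCAM was called lower in 1 and higher in 3. Its differences on days 0, 1, 4, 8 and 16 of DXR, called lower in the main fit, then turned positive.

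CD44, the receptor for hyaluronan, fell on day 0 of each inducer and rose late in DDR-Sen and RS. The untreated libraries held 110252 and 102860 and the RS libraries 133077 and 125485 (log2 difference 0.28, SE 0.07, adjusted p = 0.0028). In 15 groups, all of DXR and all of SDS but day 2, libraries could not be told apart for CD44. Its calls there were not refitted without a library of those groups, only without an untreated library or 1 of another group. The group mean on day 0 of SDS was 57671 (-0.88, adjusted p = 1.9e-09), the lowest of the 26, and on day 1 it was 82646 (-0.37, adjusted p = 0.00058). The libraries of day 0 of KCl held 83879 and 83803 (-0.35, adjusted p = 0.00031), and on day 1 they held 90535 and 92993 (-0.21, adjusted p = 0.043). The mean on day 0 of DXR was 90341 (-0.24, adjusted p = 0.011).
From day 6 the levels of DXR were 129622, 132923 and 136822 on days 6, 8 and 16 (0.28, 0.32 and 0.36, adjusted p = 0.0035, 0.0013 and 0.00029). Day 6 was also called higher after SDS (124243, 0.22, adjusted p = 0.021) and KCl (132528 and 112753, 0.20, adjusted p = 0.042). CD44 was called lower in 5 (a median of 13.6% of all genes per comparison) and higher in 6 (13.1%) of 25 comparisons. No called difference was of 2-fold or more. The calls on day 0 of DXR (-0.19 without the smaller untreated library), day 1 of KCl (-0.16 and -0.26 without the smaller and the larger untreated, -0.20 and -0.23 without the smaller and the larger KCl library), day 6 of KCl (0.25 and 0.15 without the smaller and the larger untreated, 0.08 without the smaller KCl library) and day 6 of SDS (0.17 without the larger untreated library) were lost on leaving out a library. The rise in RS was lost when only its 4 libraries were fitted (0.28, adjusted p = 0.20) or with the upper quartile of genes above 0 in any library (0.14, adjusted p = 0.17). Day 6 of SDS and days 1 and 6 of KCl and day 0 of DXR were also lost with only 2 groups fitted (adjusted p = 0.17, 0.073, 0.33 and 0.088). With the upper quartile of genes above 0 in each library CD44 was called lower in 1 and higher in 17.

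**Figure D3:**
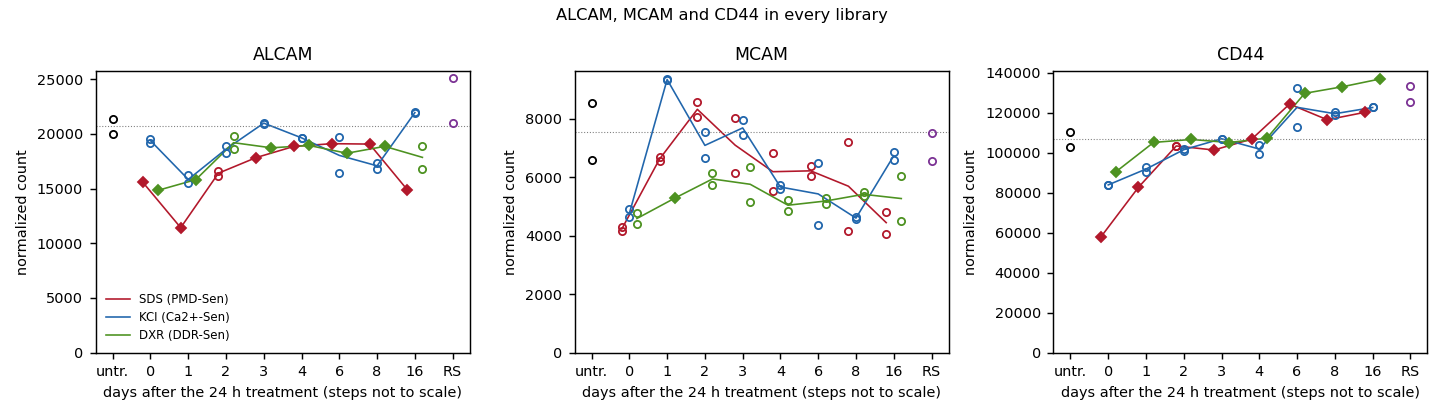
Normalized counts of ALCAM, MCAM and CD44 on linear axes from 0, for untreated cells, each inducer by day and RS. Open circles are single libraries, filled diamonds are means of groups whose libraries could not be told apart, and lines join group means. CD44 was lowest on day 0 of SDS, at 57671, and highest on day 16 of DXR, at 136822.

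CDH2, the N-cadherin of mesenchymal cells and neurons, was the member that fell most steadily: from day 4 on it was called lower on every day of every inducer, and in RS. The untreated libraries agreed closely, with 1519 and 1514 normalized counts. On day 0 of SDS it rose to 3743 and 3248 (log2 difference 1.20, SE 0.23, adjusted p = 5.4e-05), the highest of all groups, and on day 1 it was back at 1549 and 1413 (-0.04, not called). Later SDS libraries held 853 and 723 on day 4 (-0.95, adjusted p = 0.0028), 718 and 562 on day 6 (-1.25), 711 and 474 on day 8 (-1.38) and 520 and 484 on day 16 (-1.59, adjusted p = 2e-06). No library of days 4 to 16 overlapped the untreated pair.
The libraries of KCl held 1149 and 1106 on day 0 (-0.43, not called), 1023 and 869 on day 3 (-0.68, adjusted p = 0.040), 593 and 561 on day 4 (-1.39), 491 and 419 on day 6 (-1.74), 459 and 441 on day 8 (-1.75, adjusted p = 5.6e-07) and 676 and 670 on day 16 (-1.17, adjusted p = 0.00077). Those of DXR held 1078 and 1572 on day 0 (-0.22, not called), 758 and 792 on day 3 (-0.97, adjusted p = 0.0025), 597 and 665 on day 4 (-1.27), 582 and 551 on day 6 (-1.42), 518 and 470 on day 8 (-1.62) and 498 and 524 on day 16 (-1.57, adjusted p = 2e-06). RS held 340 and 765 (-1.57, adjusted p = 1.8e-06), a ratio of 2.25 between its libraries, the widest for CDH2, and with only the untreated and RS libraries in the fit this call was lost (adjusted p = 0.069). CDH2 was called lower in 15 (a median of 13.6% of all genes per comparison) and higher in 1 (13.1%) of 25 comparisons. Only day 3 of KCl depended on a library (-0.68 and -0.69 without the smaller and the larger untreated, -0.80 and -0.57 without the smaller and the larger KCl library, none called), and it was also lost with no filter (adjusted p = 0.082), voom weights (0.052) or the upper quartile of genes above 0 in any library (0.066).

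CDH11, the cadherin of mesenchymal and bone-forming cells, went the opposite way to CDH2 on day 0 of SDS. The untreated libraries held 6256 and 7094 normalized counts. On days 0 and 1 of SDS CDH11 fell to 2532 and 2158 (log2 difference -1.51, SE 0.19, adjusted p = 9.4e-08) and 3721 and 3743 (-0.84, adjusted p = 0.0012), and its libraries on day 2 held 4863 and 4462 (-0.52, adjusted p = 0.052). On day 16 of SDS they held 11683 and 7721 (0.51, adjusted p = 0.028). Day 0 of KCl showed no such fall, with 8220 and 8252 (0.31, adjusted p = 0.17). On day 8 of KCl CDH11 reached 12028 and 12042 (0.85, adjusted p = 0.00057), the highest group mean, and on day 16 it was at 6985 and 7247 (0.09, not called).
After DXR only day 6 was called, with 3963 and 5119 (-0.56, adjusted p = 0.019), and day 16 held 10565 and 7697 (0.44, adjusted p = 0.058). The RS libraries held 11370 and 5869 (0.29, adjusted p = 0.21), and without the larger the difference was 0.77 and was called. CDH11 was called lower in 3 (a median of 13.6% of all genes per comparison) and higher in 2 (13.1%) of 25 comparisons. The calls on day 16 of SDS (0.42 without the smaller untreated, 0.21 without the smaller SDS library) and day 6 of DXR (-0.47 without the larger untreated, -0.38 without the smaller DXR library) were lost on leaving out a library, and day 16 of DXR was called without its larger library (0.67). With no filter both calls were lost as well (adjusted p = 0.083 and 0.051), and day 16 of SDS also with only 2 groups fitted (0.13) or the upper quartile of genes above 0 in any library (0.12). With the upper quartile of genes above 0 in each library CDH11 was called higher in 10 comparisons, and with library totals in 4.

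CDH13, the T-cadherin that binds adiponectin and LDL, rose early and came back, most of all after KCl. The untreated libraries held 730 and 867 normalized counts. After KCl the libraries held 1976 and 2046 on day 0 (log2 difference 1.34, SE 0.12, adjusted p = 4.7e-11), 1834 and 1789 on day 1 (1.19), 1530 and 1559 on day 2 (0.96), 1497 and 1475 on day 3 (0.90), 1199 and 1248 on day 4 (0.62) and 1312 and 1109 on day 6 (0.60, adjusted p = 0.00043). All 12 lay above both untreated libraries and all 6 days passed the test. Days 8 (927 and 1010, 0.28, adjusted p = 0.065) and 16 (867 and 894, 0.15) did not pass.
After DXR CDH13 held 1088 and 1325 on day 0 (0.59, adjusted p = 0.00023), a group mean of 1669 on day 1 (1.07, adjusted p = 2.9e-08), 1371 and 1551 on day 2 (0.87) and 1002 and 1026 on day 8 (0.35, adjusted p = 0.025), and all days from 0 to 8 were called higher. After SDS the rise was smaller, with 968 and 1148 on day 0 (0.41, adjusted p = 0.0058) and 1198 and 1024 on day 1 (0.48, adjusted p = 0.0034), and no later day passed. RS held 794 and 747 (-0.05, adjusted p = 0.78). CDH13 was called higher in 15 of 25 comparisons (a median of 13.1% of all genes per comparison) and lower in none (13.6%). Days 0 and 1 of SDS (0.28 and 0.35 without the smaller untreated library, 0.28 without the larger and 0.36 without the smaller SDS library) and day 8 of DXR (0.23 without the smaller untreated, 0.37 and 0.33 without the smaller and the larger DXR library) lost their call on leaving out a library, the last also with no filter (adjusted p = 0.053) or voom weights (0.067). Days 3 and 8 of SDS were called without their larger library (0.44 and 0.43), day 8 of KCl without the larger untreated library (0.41) and day 16 of DXR without its smaller library (0.41).

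**Figure D4:**
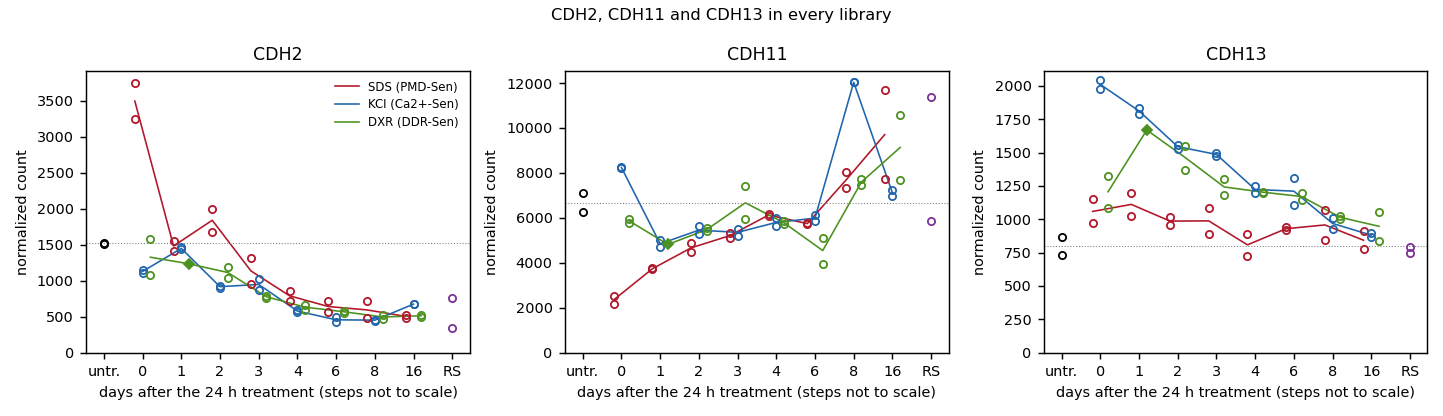
Normalized counts of CDH2, CDH11 and CDH13 on linear axes from 0, for untreated cells, each inducer by day and RS. Open circles are single libraries, filled diamonds are means of groups whose libraries could not be told apart, and lines join group means. CDH2 was highest on day 0 of SDS, with 3743 and 3248, and CDH13 on day 0 of KCl, with 1976 and 2046.

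Counted by group, the members' calls stand here beside the share of all 15629 genes called in the same direction. After SDS, 2 of the 8 members were called higher on day 0 and 5 lower, where 26.4% and 29.1% of all genes were (55.5% in either direction). On day 1 it was 1 higher (16.3%) and 5 lower (14.4%), 30.7% in all, and on day 2 it was 0 higher (12.3%) and 3 lower (7.75%), 20.1% in all. No member was called on day 3 (11.4% higher and 9.72% lower, 21.1%). Day 4 had 0 higher (12.4%) and 1 lower (11.7%), 24.1% in all, day 6 had 1 higher (15.9%) and 1 lower (14.8%), 30.7%, and day 8 had 0 higher (13%) and 1 lower (13.1%), 26.1%. Day 16 had 2 higher (20.8%) and 3 lower (22.8%), 43.6% in all.
After KCl, 7 members were tested on day 0, with 1 higher (27%) and 3 lower (31.9%), 58.9% in all. Of 8 members, day 1 had 1 higher (7.41%) and 3 lower (9.18%), 16.6%, day 2 had 1 higher (2.71%) and 0 lower (2.5%), 5.21%, and day 3 had 1 higher (7.98%) and 2 lower (7.29%), 15.3%. Day 4 had 1 higher (9.16%) and 1 lower (10.8%), 19.9%, and day 6 had 2 higher (13.1%) and 2 lower (13.6%), 26.7%. Day 8, with 3 higher (20.4%) and 3 lower (22.4%), 42.8% in all, had more members called than any other day of KCl, and day 16 had 0 higher (8.27%) and 1 lower (7.99%), 16.3%.
After DXR, day 0 had 1 higher (18.7%) and 3 lower (21.4%), 40.1% in all, day 1 had 1 higher (14.8%) and 4 lower (14.8%), 29.6%, and day 2 had 1 higher (9.96%) and 0 lower (9.63%), 19.6%. Day 3 had 1 higher (10.9%) and 1 lower (10.3%), 21.2%, and day 4 had 1 higher (12.3%) and 2 lower (12.5%), 24.7%. Day 6 had 2 higher (18.1%) and 3 lower (18.2%), 36.2%, day 8 had 3 higher (18.9%) and 2 lower (17.9%), 36.8%, and day 16 had 2 higher (22%) and 3 lower (24.8%), 46.8%. In RS 2 of 8 were higher, VCAM1 and CD44 (23.2%), and 1 lower, CDH2 (23.9%), 47.1% in all.

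**Figure D5:**
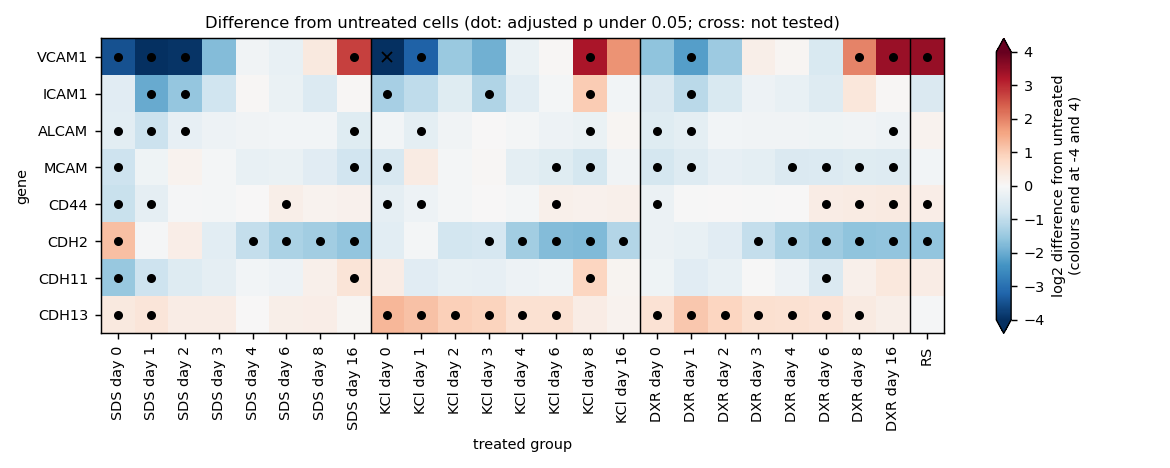
Log2 difference from untreated cells (colour) for the 8 genes in the 25 treated groups, with a dot where the adjusted p was under 0.05 and a cross for VCAM1 on day 0 of KCl, which was not tested. Colours end at -4 and 4, and VCAM1 on day 1 of SDS, at -6.24, lies beyond the end. CDH2 is called lower in 15 groups (a median of 13.6% of all genes per group) and CDH13 higher in 15 (13.1%).

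Whether the inducers differed from each other was tested day by day, without the untreated libraries. On day 0, SDS and KCl differed in 6 of 7 members tested, beside 63.7% of all genes. CDH2 was higher after SDS than after KCl (log2 difference 1.63, SE 0.23, adjusted p = 4e-07), as was ICAM1 (0.88, adjusted p = 0.036), while CDH11 (-1.82, adjusted p = 1.8e-09), CDH13 (-0.93, adjusted p = 6.2e-08), CD44 (-0.54, adjusted p = 1.3e-06) and ALCAM (-0.32, adjusted p = 0.0025) were lower after SDS. The ICAM1 difference was not called without any 1 of its 4 libraries (0.77 to 1.00). The day 0 difference between SDS and DXR was called in 4 of 8 (56.5% of all genes), with CDH2 at 1.42, CDH11 at -1.33, CD44 at -0.65 and VCAM1 at -1.87 (adjusted p = 0.032), and the last was not called without any 1 of its libraries (-1.74 to -2.01). KCl and DXR differed on day 0 in 3 of 7, all higher after KCl (60.8% of all genes): CDH13 by 0.74, CDH11 by 0.49 and ALCAM by 0.39. The CDH11 difference was not called without any 1 of its libraries (0.47 to 0.51).
VCAM1 was not called between KCl and DXR on any day tested, with differences of -1.04 (adjusted p = 0.33) on day 1 and -0.03 (adjusted p = 0.99) on day 2. On day 1 VCAM1 was lower after SDS than after KCl (-3.00, adjusted p = 0.0046) and than after DXR (-4.04, adjusted p = 9.4e-05). The first of these was -2.57 without the smaller SDS and -2.71 without the larger KCl library, and then not called. In all 3 of 8 members differed between SDS and KCl on day 1 (19.6% of all genes), 5 between SDS and DXR (35.3%) and 2 between KCl and DXR (25.2%), among them MCAM, which was higher after KCl than after DXR (0.82, adjusted p = 0.0013), and CD44, which was lower (-0.20, adjusted p = 0.048) and not called without the smaller or the larger KCl library (-0.18 and -0.21). ICAM1 was lower after SDS than after DXR (-0.92, adjusted p = 0.049), and not called without the smaller or the larger SDS library (-1.13 and -0.71). On day 2, 3 of 8 members differed between SDS and KCl (11.7%) and the same number between SDS and DXR (22.7%): VCAM1 was lower after SDS, by -2.45 and -2.48, CDH2 higher, by 1.00 and 0.72, and CDH13 lower, by -0.65 and -0.56. Without the larger SDS library the VCAM1 differences of day 2 were -1.59 and -1.63 and those of CDH2 0.87 and 0.59, none called. The VCAM1 difference from KCl was also not called without the smaller or the larger KCl library (-2.07 and -2.82), that from DXR without the larger DXR library (-1.89), and those of CDH2 without the smaller KCl (0.98) or the larger DXR library (0.63).
From days 3 to 6 fewer members were called between inducers. Between SDS and KCl, 0.179%, 0.102% and 0.192% of all genes were called on days 3, 4 and 6, and CDH13 was the member among them on days 3 (-0.60, adjusted p = 0.026) and 4 (-0.61, adjusted p = 0.040), lower after SDS. Against DXR it was also lower after SDS on day 4 (-0.58, adjusted p = 0.016, 0.723% of all genes). These 3 calls were each lost without some of their libraries, with differences between -0.44 and -0.75. On day 8, 3 of 8 members were higher after KCl than after SDS (19.4%): VCAM1 (SDS minus KCl -2.87, adjusted p = 0.0075), ICAM1 (-1.54, adjusted p = 0.0043) and CDH11 (-0.65, adjusted p = 0.016). Without the smaller SDS library they were -1.74, -0.91 and -0.58, and none was called. Without the smaller KCl library VCAM1 was at -2.80, and CDH11 was at -0.65 without either KCl library, also not called. CDH11 was higher after KCl than after DXR too (0.66, adjusted p = 0.012, 22.2% of all genes), and not called without any 1 of the libraries (0.64 to 0.69). On day 16 ALCAM and MCAM were lower after SDS than after KCl (-0.56 and -0.60, 23.2% of all genes), MCAM not without the smaller SDS (-0.48) or the smaller or larger KCl library (-0.63 and -0.57). ALCAM was higher after KCl than after DXR (0.30, adjusted p = 0.011, 27.7%), but not without the smaller or the larger KCl (0.30 and 0.31) or the larger DXR library (0.22). No member was called between SDS and DXR (5.14%). The VCAM1 difference between SDS and DXR on day 16 was -0.72 (SE 0.74, adjusted p = 0.66).

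From day 0 to day 16, CD44, CDH2 and CDH13 were called after each of the 3 inducers, each with 1 sign. CD44 rose by 1.06, 0.55 and 0.60 on the log2 scale after SDS, KCl and DXR. CDH2 was lower on day 16 by -2.79, -0.74 and -1.35, and CDH13 by -0.33, -1.19 and -0.35. VCAM1 rose from a mean of 80.0 to 6635 after SDS (6.21, adjusted p = 3.7e-08) and from 295 to 10158 after DXR (5.06, adjusted p = 3.5e-06), and its KCl means of 49.1 and 3170 were not tested. CDH11 rose after SDS (2.02) and DXR (0.62), with -0.21 after KCl. ICAM1 was called after KCl (1.20), with 0.50 after SDS and 0.65 after DXR, MCAM after KCl (0.50), with 0.07 and 0.19, and ALCAM after DXR (0.26), with -0.06 after SDS and 0.18 after KCl. Of all genes, 60%, 58.3% and 41.4% were called in these comparisons.

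Partners and relatives of the members were counted as lists, and counts of called list genes stand beside the shares of all genes called in the same directions. Counts of comparisons for a single gene are of the 25 with untreated cells, which share the same 2 untreated libraries. In these a median of 13.1% of all genes were called higher (2.71% to 27%) and 13.6% lower (2.5% to 31.9%). Of 27 other immunoglobulin superfamily adhesion genes 23 were tested. On day 0 of SDS 5 were called higher and 10 lower (26.4% and 29.1% of all genes), with a median log2 difference of -0.52 against -0.03 for all genes, and in RS 11 were higher and 3 lower (23.2% and 23.9%, median 0.46 against 0.00). By the largest called change, the laminin receptor BCAM fell from 1658 and 2343 to 558 and 518 on day 0 of SDS (-1.87), THY1, a fibroblast surface marker, from 20031 and 19744 to 7750 and 6358 on the same day (-1.50), and ICAM5 from 907 and 1232 to 366 and 268 on day 0 of KCl (-1.75). ICAM5 was called higher in 11 other comparisons.
Of 32 other cadherins 19 were tested. On day 0 of SDS 9 were lower and 5 higher (29.1% and 26.4% of all genes, median -0.61), on day 0 of KCl 9 were lower and 1 higher (31.9% and 27%, median -0.40), and on day 0 of DXR 6 were higher and 1 lower (18.7% and 21.4%, median 0.48). PCDH18, a protocadherin, fell from 9571 and 8867 to 542 and 361 on day 0 of SDS (-4.38, adjusted p = 8e-17). PCDH7 fell there from 1791 and 1889 to 451 and 585 (-1.84) and was called lower in 13 comparisons, while CELSR3, a large cadherin of planar polarity, rose there from 131 and 161 to 543 and 598 (1.96) and was called higher in 18.
Of 10 partners of cadherins and cortical actin tested, 8 were lower and 1 higher on day 0 of SDS (29.1% and 26.4% of all genes, median -0.57). VCL, the vinculin of adhesion sites, fell from 31600 and 33398 to 8640 and 7118 (-2.05). JUP, plakoglobin, fell from 1408 and 1267 to 357 and 323 (-1.97) and was higher in 22 other comparisons. EZR, an ezrin that links CD44 to actin, was lower in 16, most on day 16 of DXR (3086 and 2724 against 7395 and 8287, -1.43).
Among genes of hyaluronan metabolism 8 of 11 were tested, and 7 were lower and 1 higher on day 0 of SDS (29.1% and 26.4% of all genes, median -1.10). CEMIP, a hyaluronan-degrading protein, fell there from 22887 and 24430 to 1071 and 1379 (-4.28). HAS2, the main hyaluronan synthase of fibroblasts, was lower in 17 comparisons, most in RS (43.8 and 70.1 against 530 and 841, -3.57). HMMR, a hyaluronan receptor that is also a mitosis gene, was lower in 18, most on day 1 of DXR (a mean of 14.8 against 932 and 938, -5.92).
Of 11 counter receptors and selectins 4 were tested. ITGA4, whose product with ITGB1 binds VCAM1, was lower in 24 of 25 comparisons, most on day 0 of SDS (857 and 895 against 1958 and 1978, -1.17). ITGB1 had -0.27 on day 0 of KCl as its largest called change, and SELPLG, the selectin ligand, fell there to 144 and 94.5 from 302 and 429 (-1.62). All 6 sheddases, proteases that cut receptors from the membrane, were tested. ADAM12 was lower in 19 comparisons (-1.16 on day 4 of DXR), ADAM17 rose on day 0 of SDS (0.96) but was lower in 8 comparisons and higher in 2, and MMP14 rose on day 1 of SDS to a mean of 42543 from 20428 and 20516 (1.06).
The 12 NF-kB targets were called in both directions. On day 0 of SDS 2 were higher and 6 lower (26.4% and 29.1% of all genes, median -0.62). On day 0 of KCl 1 was higher and 5 lower (27% and 31.9%, median -0.64). In RS, where VCAM1 had its highest mean, 3 were higher and 7 lower (23.2% and 23.9%, median -0.37). On day 8 of KCl, where VCAM1 and ICAM1 were both called higher, 4 were higher and 0 lower (20.4% and 22.4%, median 0.10). The chemokine gene CXCL8 rose on day 0 of SDS to 2836 and 4149 from 272 and 39.5, untreated libraries far apart (5.03, SE 1.04), and IL6 to 572 and 735 from 119 and 75.7 (2.76), in the group where CCL2 fell to 65.8 and 74.9 from 1170 and 780 (-3.75) and VCAM1 fell. These lists were chosen with earlier results of the data known, and no list was tested as a set.

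The genes whose log2 group means followed each member most closely over the 26 groups, among 11068 genes with a mean of at least 100, were FGF9, EFEMP1 and ADAMTS8 for VCAM1 (Pearson r from 0.979 to 0.962, with the day 0 value of KCl that chose VCAM1 included). For ICAM1 they were GXYLT2 (0.940), EPAS1 and SVEP1, for CDH2 SYNE1 (0.934), DCAF13 and KCNG1, for CDH11 MAP3K1 (0.934), BMP4 and SSH2, and for CD44 ST3GAL5 (0.948), LBH and RECK. ALCAM had DDAH1 (0.841), SAMD4A and CRIM1, MCAM had ACTR3 (0.871), CEP78 and PPP1R14B, and CDH13 had PCDHGB6 (0.811), QPCT and STARD10. PCDHGB6 shares its last exons with other gamma protocadherins, so its count is uncertain. No other member was among the 3 closest genes of any member.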

How the data were processed

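Messenger RNA of 52 samples (26 groups of 2) had been sequenced as read pairs. The submitters' processing notes name Trim Galore, HISAT2, HTSeq, featureCounts and DESeq2 and the builds GRCh38 and hg38. Versions and the strand setting are not given in the sources used here, so reads of overlapping antisense genes cannot be told apart. The deposited values are 25 distinct tables, each of a treated group and untreated cells. Their mean column is a signal computed by the authors, the mean over 4 libraries of counts divided by size factors. The other columns hold the authors' fold changes, errors and p-values and were not used.

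Whole counts of each library were recovered from the deposited means, each a sum of whole counts times 4 steps. The 10 tables with 15 digits were solved jointly for 46275 genes, and the 15 with 10 digits (fewer for part of day 1 of DXR) given the untreated counts. The 10 tables, rounded to 10 digits and solved again given the same untreated counts, gave the same counts for 100% of uniquely solved genes. This checks how tables with 10 digits were solved, and cannot show an error in the joint solution. Where a pair was not unique (at most 2961 genes, on day 1 of DXR) or not found (at most 1532), the group mean entered for both libraries and the residual degree of freedom was taken back. Such a gene was not refitted without either library of that group, so its calls there did not face that check. Libraries could not be tied to the replicate numbers of the labels.

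Counts were scaled by the median of ratios. limma 3.58.1 (R 4.3.3, trend and robust) was fitted to log2(normalized count + 1) over all 26 groups for 15629 genes with a mean of at least 10, in place of a count model because the deposited unit is a signal and the counts were recovered from it. P-values were 2-sided, Benjamini-Hochberg adjusted over all genes tested, and called under 0.05. Fold changes on that scale understate changes of low genes. The programs were tested on simulated data. The samples are called independent, with nothing on separate cultures, so p-values measure only the spread between them, which may be technical. Members, lists and motifs were chosen with earlier results of these data known. Genes named were the members, the 3 most alike for each, and the 3 largest called changes per list among genes with a mean of at least 100. Alternatives were other scalings, pseudocounts of 0.1 and 10, no filter or a mean of at least 100, a log2 difference of at least 1, fits of only 2 groups, no trend, voom weights and leaving out each library.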

Additional observations from a re-analysis of the deposited data

Results flagged for a closer look

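The comparisons below are, for each gene and each pair of inducers, the day with the largest called difference between inducers, tested directly by limma. VCAM1 differed by -3.00 between SDS and KCl and by -4.04 between SDS and DXR on day 1. ICAM1 differed by -1.54 between SDS and KCl on day 8 and by -0.92 between SDS and DXR on day 1. ALCAM differed by -0.56 between SDS and KCl on day 16, by -0.47 between SDS and DXR on day 1 and by 0.39 between KCl and DXR on day 0. MCAM differed by -0.60 between SDS and KCl on day 16 and by 0.82 between KCl and DXR on day 1. CD44 differed on day 0 by -0.54 between SDS and KCl and by -0.65 between SDS and DXR, and on day 1 by -0.20 between KCl and DXR. CDH2 differed on day 0 by 1.63 between SDS and KCl and by 1.42 between SDS and DXR. CDH11 differed on day 0 by -1.82 between SDS and KCl and by -1.33 between SDS and DXR, and on day 8 by 0.66 between KCl and DXR. CDH13 differed on day 0 by -0.93 between SDS and KCl and by 0.74 between KCl and DXR, and on day 1 by -0.59 between SDS and DXR. All values are log2 differences, the first-named inducer minus the second. On leaving out some of the libraries, the calls of VCAM1 and MCAM between SDS and KCl and both of ICAM1 were lost. So were those of CD44 and CDH11 between KCl and DXR. Groups of 2 libraries allow no check for a sample far from the others.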

How the results depend on the processing

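No paired analysis was possible because the recovered libraries could not be tied to the replicate numbers of the labels. Read numbers limit low values, such as VCAM1 on day 1 of SDS with 5 and 18 reads. Scaling by the upper quartile of genes above 0 in each library raised all genes by 0.14 to 0.87 (log2). Untreated libraries held 21793 to 22461 genes above 0 and treated ones 22198 to 29679. With this scaling 63 differences turned positive, 35 of them called in neither fit. The other 28 were ALCAM on day 2 of SDS (0.0071), days 0 and 8 of KCl (0.64 and 0.13) and on all days of DXR (in order of time 0.39, 0.33, 0.42, 0.49, 0.57, 0.35, 0.43 and 0.49); MCAM in RS (0.56), on day 0 of KCl (0.076) and days 0, 1, 4, 8 and 16 of DXR (0.16, 0.21, 0.12, 0.087 and 0.18). The same held for CD44 on days 0 and 1 of KCl (0.39 and 0.13) and days 0, 1 and 3 of DXR (0.63, 0.70 and 0.61), CDH2 on day 0 of DXR (0.65), CDH11 on days 0, 3 and 4 of DXR (0.68, 0.59 and 0.49) and CDH13 in RS (0.61). An upper quartile over genes above 0 in any library, added after seeing the data, shifted genes by -0.14 to 0.08 and turned 2 of these, both near 0 and not called: CD44 (0.0075) and CDH11 (0.020) on day 3 of DXR.

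Counts of comparisons with untreated cells called higher or lower moved as follows. With the upper quartile of each library, higher and lower calls were 2 and 2 for ICAM1, 11 and 1 for ALCAM, 3 and 1 for MCAM and 17 and 1 for CD44, and higher calls were 3 for CDH2 and 10 for CDH11. With the added upper quartile, higher calls were 3 for CD44 and 1 for CDH11. With library totals, CDH11 had 4 higher and 5 lower calls, and lower calls between inducers were 4 for ICAM1, 7 for ALCAM and 2 for MCAM. With no filter, ICAM1 had 0 higher and 3 lower, MCAM 5 lower and CDH11 1 higher, and with a mean of at least 100 CDH11 had 5 lower. With only 2 groups in the fit, ICAM1 had 2 higher and 8 lower, CD44 3 lower and CDH11 9 lower. With voom weights VCAM1 had 1 lower. With a log2 difference of at least 1 there were 0 lower for ALCAM and MCAM, 0 higher and 0 lower for CD44, 0 higher and 1 lower for CDH11 and 3 higher for CDH13. The cause was not tested.

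Each fit left out 1 library. A count below takes each comparison from the fit without the smaller, or the larger, library of 1 of its 2 groups. It thus pools many fits and is not the effect of dropping 1 library. Comparisons that could not be refitted are not in it. Higher and lower calls ranged from 3 to 4 and 3 to 5 for VCAM1, and 0 to 1 and 2 to 5 for ICAM1. Those of ALCAM ranged from 0 to 0 and 6 to 8, and those of MCAM from 0 to 0 and 2 to 12. CD44 had 4 to 5 and 3 to 4, and CDH2 had 1 to 1 and 14 to 14. The calls ranged from 1 to 4 and 2 to 3 for CDH11 and from 12 to 16 and 0 to 0 for CDH13. Between inducers they ranged from 2 to 3 lower for VCAM1, 0 to 0 higher and 1 to 2 lower for ICAM1, 0 to 2 higher and 0 to 1 lower for MCAM, 2 to 4 higher for CDH2, 0 to 1 higher and 2 to 3 lower for CDH11 and 4 to 6 lower for CDH13. Over all genes, calls per comparison ranged from 814 to 9202, from 443 to 11909 with the upper quartile of each library, from 899 to 8896 with only 2 groups in the fit, from 488 to 8774 with voom weights, from 122 to 3299 with a log2 difference of at least 1 and from 152 to 8127 without 1 library.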
